A study of Mus musculus with 10 samples.

Results

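Liver sinusoidal endothelial markers are genes by which the lining of the liver's smallest vessels is recognised, and 10 of them were followed in fetal mouse liver without the paternal copy of the microRNA gene Mir483. The markers were chosen by name from 55401 genes in the count table, with earlier results of these data known. All 10 are reported whatever their values, and all 10 passed the filter on low counts. They were Stab1, Stab2, Lyve1, Clec4g, Oit3 and Fcgr2b, which are enriched in sinusoidal endothelium, the transcription factor gene Gata4, and Kdr, Pecam1 and Cdh5, which endothelium of all vessels uses. Whole livers of female fetuses near term (E18.5, in embryonic days after mating) were profiled by polyA RNA-seq, with 5 WT fetuses and 5 Mir483Pat-KO littermates. In the Mir483Pat-KO fetuses Mir483 was deleted from the copy inherited from the father in every cell of the body, with the maternal copy left in place, so that the endothelium was not targeted on its own. The deletion was made in JM8.F6 embryonic stem cells of the C57BL/6N strain, in 2 independent clones, and the colony was kept on C57BL/6J. The clone behind these fetuses is not given in the sources used here.

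Sinusoidal endothelial cells form a fenestrated lining without an organised basement membrane, and they clear macromolecules from blood through scavenger and lectin receptors. In the fetus the lining also surrounds the islands of blood cell formation that the liver then holds. Endothelial growth depends on vascular endothelial growth factor signalling through the receptor that Kdr encodes, and GATA4 is known as a regulator of sinusoidal as against continuous capillary identity. A microRNA pairs with messenger RNAs mainly through bases 2 to 8 of its mature sequence, the seed, and usually lowers the level of the messenger.

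The mature sequences of Mir483 are shown because they define the sites that could be looked for in the markers. They lie on the minus strand of chromosome 7 inside Igf2, at chr7:142654932-142654952 for the 3p arm and chr7:142654968-142654989 for the 5p arm (RefSeq, GRCm38.p6), and capitals mark the seed.
mmu-miR-483-3p: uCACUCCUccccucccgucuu
mmu-miR-483-5p: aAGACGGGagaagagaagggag
The complement of the 3p seed, AGGAGTG, was found in the longest annotated 3′ UTR of 1 of the 10 markers, Cdh5, and that of the 5p seed, CCCGTCT, in 0 of 10. Among all genes tested that have an annotated 3′ UTR, 1620 of 12875 held the 3p match (12.6%) and 422 held the 5p match (3.28%). The Cdh5 match is on the plus strand at chr8:104143078-104143084 (GRCm38, GENCODE M21), starting at base 80 of 1513 of the 3′ UTR, and is shown in capitals with 10 bases on each side.
Cdh5 site: ctgatttccaAGGAGTGacaccagact
A match describes these letters and does not show that the microRNA binds there.

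Total counts per library ranged from 10831350 to 14765880, and the markers had between 165 and 2505 counts in a library. Mir483 itself had 10 to 22 counts in each WT library and 0 counts, which allows up to 3, in each of the 5 Mir483Pat-KO libraries. Values below are CPM, read counts scaled to a common library size by TMM, unless stated, and genotype differences are log2 fold changes of Mir483Pat-KO over WT. Identification numbers in the labels fall in a lower range (WT replicates 1 to 4 and Mir483Pat-KO replicates 1 and 2) and an upper range (WT replicate 5 and Mir483Pat-KO replicates 3 to 5). What the ranges stand for is not stated.

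The markers are spread over 7 chromosomes (GRCm38, GENCODE M21). Stab1 and Gata4 lie on the minus strand of chromosome 14 at chr14:31139013-31168641 and chr14:63198922-63271692. Stab2 and Oit3 lie at chr10:86841198-87008025 and chr10:59422958-59441778, Clec4g and Cdh5 at chr8:3707064-3720651 and chr8:104101625-104144511, and Lyve1 at chr7:110850607-110863239. Kdr is found at chr5:75932827-75978458, Pecam1 at chr11:106654217-106750628 and Fcgr2b at chr1:170958617-170976547. Cdh5 is the 1 marker on the plus strand. Exons of other genes on the same strand shared 0% of the markers' exon bases, and those on the opposite strand at most 5.9%, in Clec4g.

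Per exon length in WT fetal liver, the hyaluronan receptor gene Lyve1 had the highest level, at 25.4 ± 3.13 RPKM (CPM per kilobase of exon; SD, n = 5). Stab2, which encodes a scavenger receptor for hyaluronan, and Oit3, which encodes a secreted protein made in the liver, followed at 18.51 ± 1.77 and 18.46 ± 2.29 RPKM. The level of Cdh5, the gene of the junction protein VE-cadherin, was 17.8 ± 1.53 RPKM and that of Stab1, a second stabilin, was 14.5 ± 0.887 RPKM. Lower levels were measured for the adhesion molecule gene Pecam1 (7.31 ± 0.470 RPKM), the lectin gene Clec4g (7.13 ± 1.07 RPKM) and Kdr (6.90 ± 0.449 RPKM). Gata4 stood at 5.70 ± 0.355 RPKM, and Fcgr2b, the inhibitory receptor for immunoglobulin G, was lowest at 3.61 ± 0.473 RPKM. In this order, the ranges of neighbours did not overlap between Lyve1 and Stab2, Stab1 and Pecam1, Kdr and Gata4, or Gata4 and Fcgr2b. Levels of Stab2, Oit3, Cdh5 and Stab1 overlapped from neighbour to neighbour, as did those of Pecam1, Clec4g and Kdr.

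**Figure D1:**
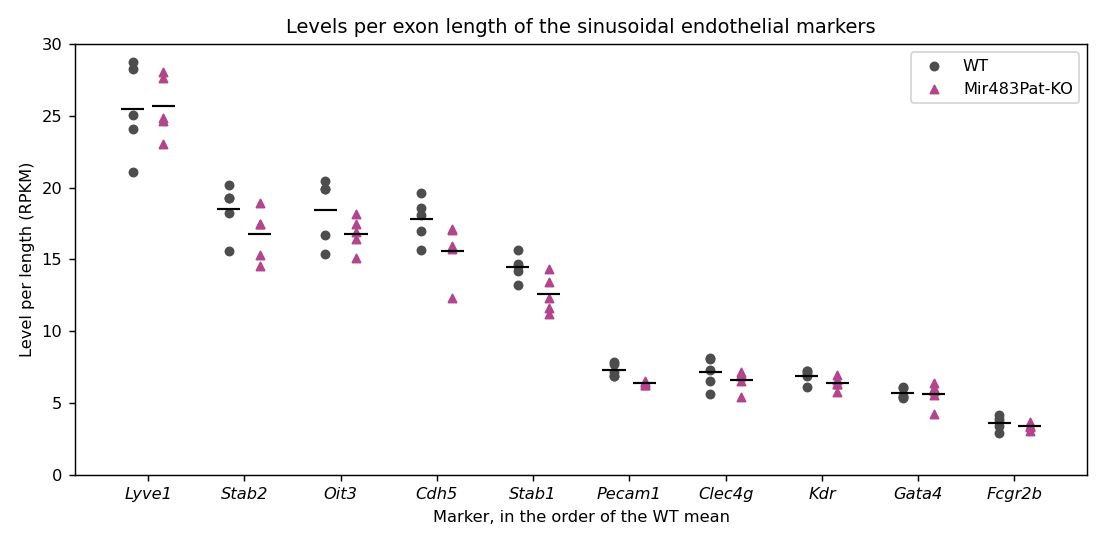
Level per exon length (RPKM, vertical axis) of each marker in the order of the WT mean (horizontal axis), with 1 point per library and a line at each group's mean. Lyve1 stood above the other markers and Fcgr2b below them, and the points of WT and Mir483Pat-KO overlapped for all markers except Pecam1.

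In Mir483Pat-KO livers 9 of the 10 markers had a mean below WT (8 of 10 when scaled by total counts alone), but the differences were small and 0 of 10 passed an adjusted p of 0.05 in edgeR. By the same test 731 of 14098 genes passed (5.19%), of which 389 were lower (2.76%) and 342 higher (2.43%), and 173 also had a fold change over 1.5 (1.23%). DESeq2 and limma-voom also called 0 of the 10 markers. Without adjustment 2 of 10 markers, Stab1 and Pecam1, had a p under 0.05 in the lower direction, against 1513 of all genes tested (10.7%). A log2 fold change below 0 was found for 6924 of all genes tested (49.1%). The median log2 fold change of the markers was −0.13, beside 0.0042 for all genes tested. All 95% intervals of the markers together ran from −22.9% to 14.6%, and none of them reached a 1.5-fold change. In bulk RNA, fewer endothelial cells and less RNA per endothelial cell cannot be told apart.

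Stab1, whose product takes up modified lipoproteins and matrix fragments, had 136, 150, 151, 146 and 161 CPM in WT replicates 1 to 5 and 138, 120, 127, 115 and 147 CPM in Mir483Pat-KO replicates 1 to 5. The groups overlapped, with 3 Mir483Pat-KO libraries below every WT library and all 5 below the WT mean. The log2 fold change was −0.20 (SE 0.0767), a difference of −13.0% with a 95% interval of −22.3% to −2.69%, and the adjusted p was 0.134 (edgeR, unadjusted 0.0180). With offsets for GC content and length the log2 fold change of Stab1 was −0.10, smaller in size than those of Fcgr2b (−0.15) and Oit3 (−0.11) under the same offsets.

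Stab2 stood at 136, 160, 169, 169 and 177 CPM in the WT libraries and at 166, 153, 134, 128 and 153 CPM in the Mir483Pat-KO libraries, taken in replicate order. The groups overlapped, with 2 Mir483Pat-KO libraries below every WT library and WT replicate 1 below the other 3. Its log2 fold change was −0.14 (SE 0.0854, edgeR adjusted p = 0.342), with a 95% interval of −20.1% to 2.60%.

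Lyve1 did not differ in the lower direction. In WT it ranged from 61.6 to 83.8 CPM and in Mir483Pat-KO from 67.3 to 81.9 CPM, so that all Mir483Pat-KO libraries lay inside the WT range. The log2 fold change was 0.013 (SE 0.0870, edgeR adjusted p = 0.951), with a 95% interval of −11.2% to 14.6%. Lyve1 is also a marker of lymphatic vessels and of some tissue macrophages.

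The other 3 genes of this group differed by less than the SD of WT. Clec4g, which encodes the sinusoidal lectin LSECtin, had 17.6 ± 2.65 CPM in WT against 16.3 ± 1.76 CPM in Mir483Pat-KO livers (SD, n = 5 each), with −0.12 as the log2 fold change (edgeR adjusted p = 0.584). Oit3 had 51.5 ± 6.38 and 46.8 ± 3.23 CPM, with −0.14 as the log2 fold change (edgeR adjusted p = 0.373). Fcgr2b had 20.9 ± 2.74 and 19.5 ± 1.24 CPM, with −0.097 as the log2 fold change (edgeR adjusted p = 0.590). With 1 library left out, Clec4g ran from −0.19 (without WT replicate 2) to −0.056 (without Mir483Pat-KO replicate 5) and Fcgr2b from −0.18 (without WT replicate 3) to −0.047 (without WT replicate 1). Fcgr2b has close relatives among the Fc receptor genes and is also transcribed in B cells and macrophages, so that its counts are less certain as a measure of endothelium.

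The regulator gene Gata4 had nearly equal means. It had 23.7, 21.3, 21.0, 23.8 and 21.5 CPM in WT replicates 1 to 5 and 23.7, 21.6, 16.5, 22.9 and 24.9 CPM in Mir483Pat-KO replicates 1 to 5. Mir483Pat-KO replicate 3 was below and replicate 5 above every WT library. The log2 fold change of Gata4 was −0.020 (SE 0.102, edgeR adjusted p = 0.932), with a 95% interval of −15.1% to 14.6%. Its direction turned with the scaling, since scaling by total counts alone gave a mean of 21.95 CPM for WT and 22.16 CPM for Mir483Pat-KO. Gata4 is transcribed in stellate and other mesenchymal cells of the liver as well.

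Among the 3 genes of endothelium in general, Pecam1 was the marker whose groups did not overlap. Pecam1 had 48.0, 42.9, 44.6, 42.8 and 49.1 CPM in WT replicates 1 to 5 and 40.4, 40.8, 39.6, 39.0 and 38.8 CPM in Mir483Pat-KO replicates 1 to 5. Groups did not overlap in the lower direction for 460 of 14098 genes (3.26%) and in either direction for 931 (6.60%), so 1 of 10 markers is a count too small to read. The Mir483Pat-KO libraries of Pecam1 lay close together, with a coefficient of variation of 2.14% beside 6.43% in WT. Counting error alone would give 4.41% at the mean count of the Mir483Pat-KO libraries, so a spread as narrow as theirs is below what the depth can resolve. The log2 fold change was −0.20 (SE 0.0653), a difference of −12.7% with a 95% interval of −20.7% to −3.96%, and the adjusted p was 0.0884 (edgeR, unadjusted 0.00817). Pecam1 is found on platelets and megakaryocytes too.

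Cdh5, the marker with the seed match of the 3p arm, was 65.7, 71.4, 78.2, 82.4 and 76.1 CPM in WT replicates 1 to 5 and 71.8, 66.0, 66.9, 51.8 and 71.7 CPM in Mir483Pat-KO replicates 1 to 5. Mir483Pat-KO replicate 4 was below every WT library, and the other 4 lay inside the WT range. The log2 fold change was −0.19 (SE 0.0893, edgeR adjusted p = 0.231), with a 95% interval of −22.9% to 0.16%. Kdr had 62.3 ± 4.05 CPM in WT against 57.7 ± 3.74 CPM in Mir483Pat-KO livers (SD, n = 5 each), with −0.11 as the log2 fold change (SE 0.0694, edgeR adjusted p = 0.367).

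**Figure D2:**
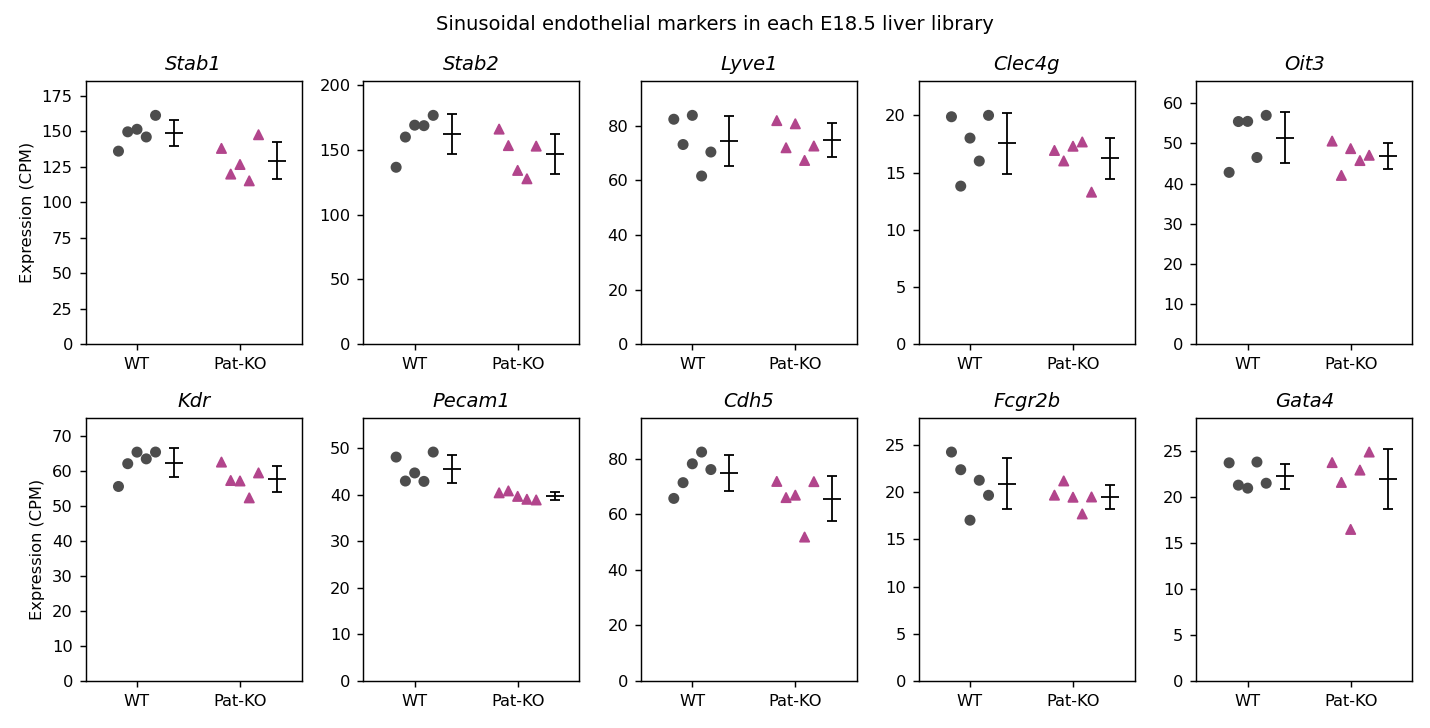
Expression of each marker (CPM, vertical axis from 0) in the 5 WT and 5 Mir483Pat-KO (Pat-KO) livers, with points in replicate order and the mean ± SD of each group beside them. Pecam1 in Mir483Pat-KO lay at 38.8 to 40.8 CPM, below all WT livers, and the groups of the other markers overlapped.

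Sinusoidal and general endothelial genes were set against each other by their sums. The summed level of Stab1, Stab2, Lyve1, Clec4g, Oit3 and Fcgr2b was 475 ± 25.5 CPM in WT against 434 ± 31.0 CPM in Mir483Pat-KO livers (SD, n = 5 each), with ranges of 442 to 505 and 391 to 473 CPM. That of Kdr, Pecam1 and Cdh5 was 183 ± 9.32 CPM in WT against 163 ± 12.1 CPM in Mir483Pat-KO livers. The ratio of the sums was 2.60 ± 0.0967 in WT and 2.66 ± 0.0626 in Mir483Pat-KO, a difference within 1 SD of WT.

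Within a genotype the markers did not vary as 1 block. Over the 10 libraries, after each group's mean was subtracted, the log2 CPM of 22 of the 45 marker pairs correlated positively and that of 23 negatively, with a median Pearson r of −0.0027. Stab1, Stab2, Kdr and Cdh5, picked out after their values were seen, had r of 0.72 to 0.94 in their 6 pairs (Spearman rho 0.55 to 0.88), and of 0.46 to 0.85 without the 2 libraries farthest from the median of the first gene of a pair. Stab2 and Kdr were the closest pair, with r = 0.94, or 0.81 without those libraries, while Stab2 and Cdh5 went from 0.81 to 0.46. Clec4g and Pecam1 formed another close pair (r = 0.74, or 0.76 without them). The lowest r over all 10 libraries, −0.60 for Oit3 and Fcgr2b, rested on 2 libraries and was −0.17 without them. These values are descriptions over libraries that share their preparation, depth and composition. Mir483Pat-KO replicate 4 had the lowest level among Mir483Pat-KO livers for 6 of the 10 markers (Stab1, Stab2, Lyve1, Kdr, Cdh5 and Fcgr2b). Without it the log2 fold changes of Cdh5, Stab2 and Kdr were −0.12, −0.11 and −0.087.

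Genes whose level followed the mean of the standardised markers most closely, among 12540 searched over the 10 libraries with group means removed, were, by rank, Ecm1 (r = 0.985), Ece1 (0.951), Akap1 (0.948), Rtp3 (0.945), Oat (0.930), Cfi (0.922), C3 (0.917) and Myo7a (0.916). With so many genes searched over 10 libraries some high r can arise, and no value for chance was computed. The mean that they followed was most extreme in Mir483Pat-KO replicates 1 (0.77) and 4 (−0.80), and it averages markers that did not vary as 1 block. Of the 8, edgeR called 4 lower in Mir483Pat-KO livers (2.76% of all genes): Ecm1 (−0.43), Ece1 (−0.38), Akap1 (−0.40) and C3 (−0.29), with adjusted p from 0.00580 to 0.0473. Ecm1 (0.0448) and C3 (0.0473) lay near the threshold, and the alternatives are not given for these genes. In this list Ece1 encodes the enzyme that activates endothelin, Ecm1 an extracellular matrix protein, C3 and Cfi components of complement, and Oat a mitochondrial enzyme of ornithine metabolism.

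Of 17 further sinusoidal genes 16 were tested, since Wnt9b had at most 12 counts in a library, and 12 of the 16 had a log2 fold change below 0 (49.1% of all genes), with a median of −0.12, and 6 were lower and 0 higher at an unadjusted p under 0.05 (10.7% of all genes lower). Ehd3, an endocytic trafficking gene, was the 1 gene called (1 of 16 lower, 0 higher, against 2.76% of all genes lower). Ehd3 had 87.5 to 98.9 CPM in WT and 93.3, 78.2, 66.0, 69.3 and 67.0 CPM in Mir483Pat-KO replicates 1 to 5, with a log2 fold change of −0.31 (SE 0.0884, edgeR adjusted p = 0.0495). Mir483Pat-KO replicate 1 lay among the WT libraries. The call was lost in 12 of 20 alternatives, 9 of which left out 1 library. It held without Mir483Pat-KO replicate 1 (adjusted p = 0.00431) and was lost without any other single library (0.0595 to 0.118), at log2 fold changes of −0.34 to −0.28. With the range of identification numbers in the model the log2 fold change was −0.24 (0.0702), with the GC content and length offsets −0.27 (0.0938), and in the lower range alone −0.13 (0.582). Flt4, the receptor gene of lymphatic vessel growth, named after its values were seen and at −0.28 as reported (edgeR adjusted p = 0.0823), was called with the replicate block (0.0460) and without WT replicate 2 (0.0426).

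Of 33 further genes of endothelium in general, 26 had a log2 fold change below 0, with a median of −0.12, and 3 fell by the test while 0 rose. Over all genes tested 49.1% were below 0 and 2.76% fell. At an unadjusted p under 0.05, 9 of the 33 were lower and 2 higher, where 10.7% of all genes were lower. Clec14a, named after its values were seen and at 0.32 as reported (edgeR adjusted p = 0.0889), was called higher without the low-count filter (0.0338), with the replicate block (0.0418) and without Mir483Pat-KO replicate 1 (0.0388). Vwf, which encodes von Willebrand factor, ranged from 58.1 to 67.3 CPM in WT and from 37.7 to 58.3 CPM in Mir483Pat-KO livers, with −0.42 as the log2 fold change (edgeR adjusted p = 0.0180). Eng, the co-receptor endoglin of the transforming growth factor beta family, had 63.8 to 77.7 CPM in WT against 49.5 to 60.7 CPM in Mir483Pat-KO livers, with −0.34 as the log2 fold change (edgeR adjusted p = 0.0219). Tie1, a receptor tyrosine kinase gene of endothelium, had 37.5 to 42.5 CPM in WT against 28.0 to 34.3 CPM in Mir483Pat-KO livers, with −0.33 as the log2 fold change (edgeR adjusted p = 0.0227). The groups did not overlap for Eng and Tie1, and Mir483Pat-KO replicate 1 was the Mir483Pat-KO library inside the WT range for Vwf (58.3 CPM). In edgeR, leaving out WT replicate 5 (log2 fold change −0.31, adjusted p = 0.0512) or Mir483Pat-KO replicate 4 (−0.32, 0.0625) ended the call of Eng. The call of Tie1 ended without WT replicate 4 (−0.31, 0.0583) and without Mir483Pat-KO replicate 3 (−0.30, 0.0502) or 4 (−0.31, 0.0633). With the GC content and length offsets the log2 fold changes of Eng and Tie1 were −0.24 and −0.22 and neither passed (0.0651 and 0.0778), whereas Vwf did. In the lower identification number range alone none of the 3 passed, at log2 fold changes of −0.27 for Vwf, −0.30 for Eng and −0.26 for Tie1 (edgeR adjusted p = 0.309, 0.219 and 0.258).

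**Figure D3:**
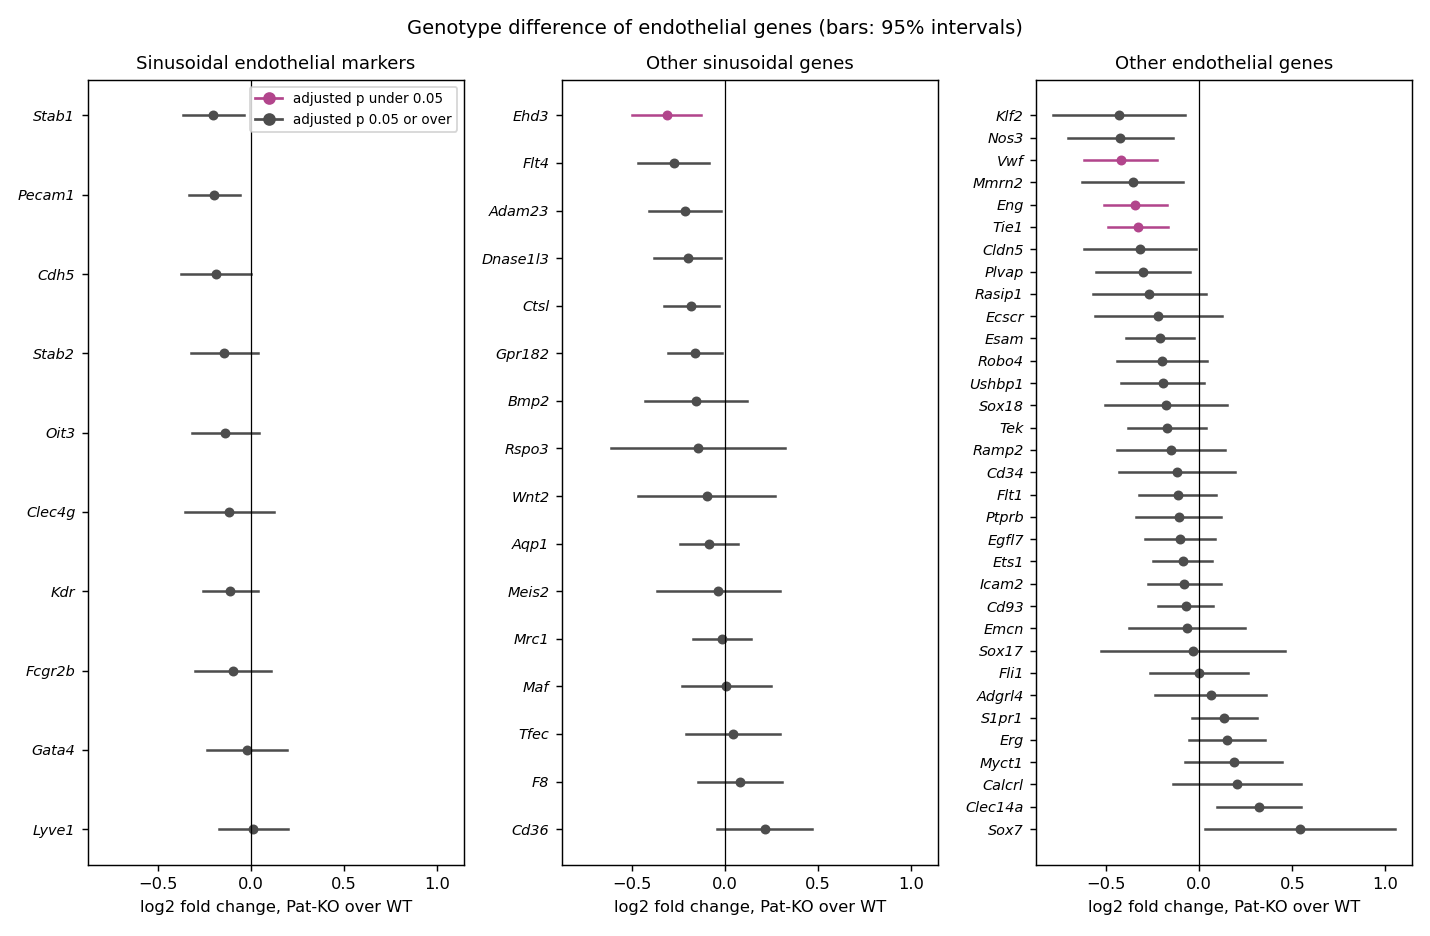
Log2 fold change of Mir483Pat-KO (Pat-KO) over WT with its 95% interval (horizontal axis) for the 10 markers, 16 other sinusoidal genes and 33 other endothelial genes, coloured where the edgeR adjusted p was under 0.05. Most points lay left of 0, and the called genes were Ehd3, Vwf, Eng and Tie1.

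Seed matches of the 3p arm were held by 3 of the 16 other sinusoidal genes (Aqp1, Cd36 and Flt4) and by 5 of the 33 other endothelial genes (Calcrl, Erg, Ptprb, Tek and Vwf). Their log2 fold changes ran from −0.42 for Vwf to 0.21 for Cd36, with 3 of 8 above 0 (Cd36, Calcrl and Erg). Vwf was the 1 of the 8 that was called, and it was lower (2.76% of all genes were called lower).

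Of 7 arterial and lymphatic genes tested, 4 were below 0 (49.1% of all genes), with a median of −0.017. By edgeR 0 of them were called (5.19% of all genes), with 0 at an unadjusted p under 0.05 (22.2% of all genes) and 0 called in each of the 20 alternatives. The gene nearest to the threshold was Gja5, a connexin of arterial endothelium, at −0.24 (adjusted p = 0.348). Of 12 ligands and co-receptors tested, 10 were below 0, with a median of −0.17, and 3 were lower at an unadjusted p under 0.05 (10.7% of all genes). As reported 0 were called, but 1 or 2 were called in 9 of the 20 alternatives. Cxcl12, a chemokine gene, had 145 ± 17.5 CPM in WT against 115 ± 14.6 CPM in Mir483Pat-KO livers (SD, n = 5 each), a log2 fold change of −0.33 that edgeR put just outside the threshold (adjusted p = 0.0515). It passed in all 9 of those alternatives, which were RLE scaling (0.0494), DESeq2 (0.0166), limma-voom (0.0494), the robust fit (0.0434), a minimum of 10 counts per library (0.0491), the replicate block (0.0457), the fit with all genes kept (0.00647), and edgeR without WT replicate 1 (0.0456) or Mir483Pat-KO replicate 1 (0.0150).

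Some genes of other cell types passed the test, and their part in the values of the endothelial markers was not tested. Of 10 hepatocyte genes all 10 were below 0 (49.1% of all genes), with a median of −0.18, and 6 were lower at an unadjusted p under 0.05 (10.7% of all genes). By the test 3 fell (Asgr1, Cps1 and Apoa1, at log2 fold changes of −0.62, −0.65 and −0.30), where 2.76% of all genes fell. Their summed level was 230105 to 258394 CPM in WT against 205494 to 238099 CPM in Mir483Pat-KO livers. Of 9 erythroid genes 8 were above 0, with a median of 0.23, and 7 were higher at an unadjusted p under 0.05. Over all genes tested 22.2% passed that p in either direction, with 10.7% lower. By the test 1 erythroid gene rose (Hbb-bs by 0.54, a globin gene that may share reads with Hbb-bt), where 2.43% of all genes rose. The erythroid sum was 15988 to 20692 CPM in WT against 18697 to 26454 CPM in Mir483Pat-KO livers. In the lower identification number range alone 0 hepatocyte, 0 erythroid and 0 B-lymphoid genes were called. That fit has 4 WT and 2 Mir483Pat-KO libraries and called 23 of 14494 genes tested, so 0 calls in such short lists cannot show that a difference is absent. There the log2 fold changes of Asgr1, Cps1 and Apoa1 were −0.62, −0.57 and −0.24 (edgeR adjusted p = 0.0583, 0.146 and 0.242), whereas that of Hbb-bs was 0.23 (0.320), against 0.54 over all libraries. Apoa1 was also lost with the GC content and length offsets (−0.23, 0.0959). The same held when WT replicate 5 or Mir483Pat-KO replicate 3, 4 or 5 was left out, at −0.31 to −0.26 (0.0517 to 0.0557). With the erythroid ranges overlapping between genotypes, 3 erythroid genes were called by DESeq2, without the low-count filter, with the replicate block and without Mir483Pat-KO replicate 1, and 2 with the offsets.

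Cells that share a marker with endothelium were read from their own genes. Over all genes tested 49.1% were below 0, 10.7% were lower at an unadjusted p under 0.05, 2.76% fell and 2.43% rose. These shares stand beside each list of this paragraph. Of 11 macrophage genes 2 fell (C1qa at −0.29 and Clec4f at −0.46) and 6 were below 0, which is near the share of all genes. At an unadjusted p under 0.05, 5 were lower and 1 higher. The median was −0.15, with sums of 701 to 875 CPM in WT against 629 to 824 CPM in Mir483Pat-KO livers. Of 12 stellate and mesenchymal genes 0 were called by edgeR and 2 by DESeq2, with 5 lower at an unadjusted p under 0.05, 10 below 0 and a median of −0.39. Reln, the stellate gene nearest to the threshold, was at −0.40 (edgeR adjusted p = 0.0664). Reln passed by DESeq2 (0.0255), without a low-count filter (0.00137), with the replicate block (0.0472) and without WT replicate 1 (0.0327) or Mir483Pat-KO replicate 1 (0.00942), and was at −0.19 in the lower identification number range alone (0.601). The stellate and mesenchymal sum was 612 to 1145 CPM in WT against 570 to 870 CPM in Mir483Pat-KO livers. Of 7 megakaryocyte genes tested 0 were called by edgeR, 0 had an unadjusted p under 0.05 and 5 were below 0, with a median of −0.15 and sums of 163 to 348 CPM in WT against 188 to 260 CPM in Mir483Pat-KO livers. Itga2b, the integrin gene with the smallest p there, was at −0.24 (edgeR adjusted p = 0.322). With 1 library left out Itga2b ran from −0.37 (without WT replicate 3, 0.0580) to −0.14 (without WT replicate 1), and it was at −0.12 with the GC content and length offsets. Of 9 B-lymphoid genes 1 rose (Rag1 at 0.47), 3 were below 0 and the median was 0.11, with sums of 108 to 137 CPM in WT against 124 to 150 CPM in Mir483Pat-KO livers. In each list 0 genes were at 0 in all libraries. By edgeR, C1qa was no longer called once WT replicate 4 or 5, or Mir483Pat-KO replicate 1, 2, 4 or 5, was left out. In those fits C1qa was at −0.31 to −0.24 (edgeR adjusted p = 0.0546 to 0.0980). Its log2 fold change shrank to −0.19 with the GC content and length offsets, which ended the call, whereas in the 6 libraries of the lower range it was −0.33 and the adjusted p was 0.125. Clec4f was lost in the absence of WT replicate 1, 4 or 5, or Mir483Pat-KO replicate 2, 4 or 5, at −0.50 to −0.35 (0.0569 to 0.0948). It was also lost in the robust fit (−0.46, 0.0575) and in the lower range (−0.39, 0.224). Rag1 was lost without Mir483Pat-KO replicate 4 (0.45, 0.0524) and in the lower range (0.30, 0.343). With the range as a covariate 5 macrophage genes were called lower. In the lower range alone 0 were, in a fit that called 23 of 14494 genes tested. Of the stellate and mesenchymal genes 5 were called without the low-count filter, 1 with the block, 3 without WT replicate 1 and 2 without Mir483Pat-KO replicate 1.

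**Figure D4:**
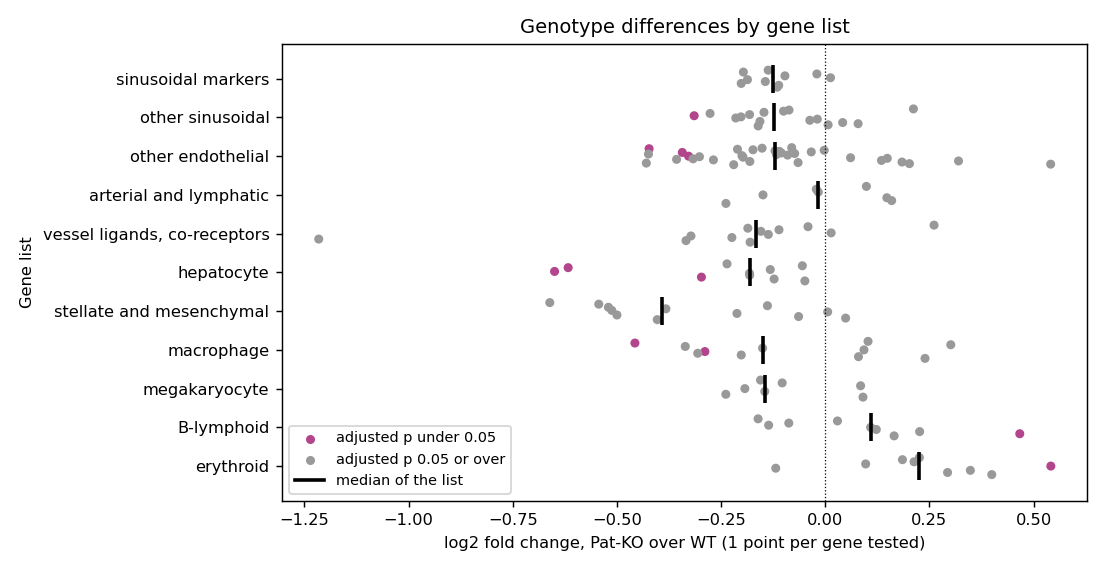
Log2 fold change of Mir483Pat-KO (Pat-KO) over WT (horizontal axis) of each gene tested in the 10 markers and in 10 other gene lists (vertical axis), with a bar at the median of each list and colour where the edgeR adjusted p was under 0.05. The medians of the markers, other sinusoidal and other endothelial genes were −0.13, −0.12 and −0.12, and that of the erythroid genes was 0.23.

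Within the lower range of identification numbers Pecam1 was 40.4 and 40.8 CPM in the 2 Mir483Pat-KO livers and 42.8 to 48.0 CPM in the 4 WT livers, and the log2 fold change fitted to these 6 libraries was −0.14 (edgeR adjusted p = 0.503). In the same fit Clec4g was at −0.041, Kdr at −0.044, Fcgr2b at −0.054 and Cdh5 at −0.11, smaller in size than over all libraries. With the range as a covariate Fcgr2b was at −0.053. In the upper range Pecam1 was 38.8 to 39.6 CPM in 3 Mir483Pat-KO livers and 49.1 CPM in the 1 WT liver. Stab1 was 120 and 138 CPM in Mir483Pat-KO and 136 to 151 CPM in WT of the lower range, and 115 to 147 CPM beside 161 CPM in the upper range. Stab2 had means of 160 CPM in Mir483Pat-KO and 158 CPM in WT of the lower range, and 138 CPM beside 177 CPM in the upper range. The lower mean of Stab2 in Mir483Pat-KO was thus seen in the upper range, which holds 1 WT liver, and not in the lower range.

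Across genes, which are not independent replicates, the log2 fold change was lower at higher GC content of the exons (Spearman rho −0.439). Stab1 and Gata4 had the highest GC content of the markers, at 57.3% and 57.4%, and Fcgr2b the lowest, at 45.4%. With offsets for GC content and gene length fitted in each library, the log2 fold changes of Stab1 and Gata4 were −0.10 and 0.083, and that of Fcgr2b was −0.15. Pecam1, with a GC content of 50.2%, was at −0.17.

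**Figure D5:**
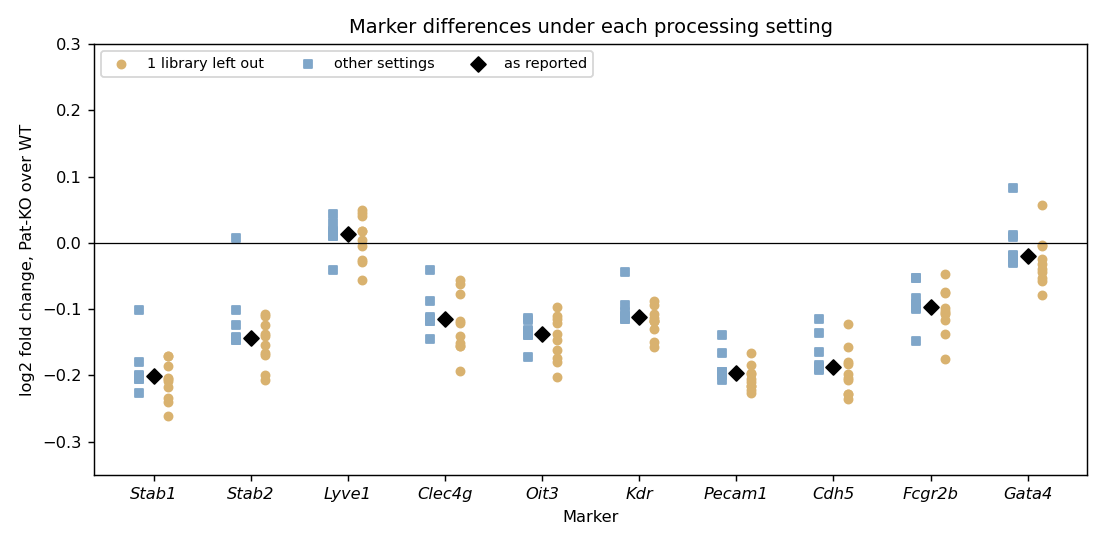
Log2 fold change of Mir483Pat-KO (Pat-KO) over WT (vertical axis) of each marker as reported, with 1 library left out in turn, and under the other processing settings. The values of 7 markers lay below 0 under all of them, and those of Stab2, Lyve1 and Gata4 lay on both sides of 0.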

How the data were processed

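Liver RNA of 5 WT and 5 Mir483Pat-KO female E18.5 littermates was sequenced from polyA libraries. The authors aligned reads to GRCm38 with STAR and deposited unnormalized read counts for Ensembl genes. The handling of strand and of reads that map to several places is not given in the sources used here. Groups came from the sample labels, and 0 columns were left unmapped. Of 55401 genes 55141 matched a symbol in GENCODE M21.

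The test was run in edgeR 4.0.16 under R 4.3.3 (filterByExpr, TMM, quasi-likelihood F-test without covariates), with Benjamini-Hochberg adjustment over 14098 genes. Calls were made below an adjusted p of 0.05. The common biological coefficient of variation was 0.111. RPKM used the union of exon lengths. Profiles were compared on log2 CPM with a prior count of 2 after group means were subtracted. A count of 0 was taken to allow up to 3 counts, a limit that covers counting error only. Seed matches were searched in the longest annotated 3′ UTR. The edgeR test was tried on simulated counts that shared the same biological coefficient of variation across genes, and the seed search was not tested.

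Alternatives were RLE scaling, DESeq2 1.42.0, limma-voom (limma 3.58.1), a robust fit, no low-count filter, a minimum of 10 counts per library, a block for the replicate number, a covariate for the identification number range (split at 450), the lower range alone, GC content and length offsets, and each library left out in turn. The markers, lists and tests were chosen with earlier results of these data known. Genes named were the 10 markers, up to 4 called genes of each other list by p (or the gene with the smallest p where 0 were called), and the 8 genes closest to the markers' mean among genes whose average log2 CPM reached 1. The other genes with seed matches were named after their values were seen. A gene withheld from reporting was left out of the lists. Plots were made in matplotlib 3.10.9.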

Additional observations from a re-analysis of the deposited data

Results flagged for a closer look

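A WT library stood apart in 1 of the 50 groups of 5 examined (25 genes in both genotypes), where chance gives about 1 in 20. C1qa, a macrophage complement gene, was 105 CPM in WT replicate 5 and 86.5 to 90.9 CPM in the other WT livers. The gap to the nearest library was 0.753 of the group's range, over the critical value of 0.71. WT replicate 5 is the single WT library of the upper identification number range. The groups of the 10 markers held no such library.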

How the results depend on the processing

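Each of the 10 markers stayed outside the adjusted p of 0.05 in all 20 alternatives, and the direction held in 190 of 200 marker and alternative combinations. The smallest adjusted p was 0.0566 for Pecam1 (DESeq2) and 0.0692 for Stab1 (edgeR, without Mir483Pat-KO replicate 5). Log2 fold changes turned for Stab2 in the lower identification number range alone (0.0068), for Lyve1 with GC content and length offsets (−0.041), and for Gata4 with the range as a covariate (0.0084), in the lower range alone (0.012) and with the offsets (0.083). Leaving out 1 library moved Lyve1 between −0.055 and 0.049, below 0 without WT replicate 4 or 5 or Mir483Pat-KO replicate 1 or 3, and Gata4 between −0.079 and 0.057, above 0 without Mir483Pat-KO replicate 3. The adjusted p of the turned values ran from 0.686 to 0.986, and the cause of the turns was not tested.

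The number of genes called, 731, was 1167 by DESeq2, 1258 without a low-count filter, 1189 with the range as a covariate and 23 in the lower range alone, which has 6 libraries, and ran from 279 (without Mir483Pat-KO replicate 4) to 863 with 1 library left out. With a fold change over 1.5 it was 173, against 321 without the filter, 21 in the lower range and 97 to 233 with 1 library left out. The number of calls among other sinusoidal genes, 1 as reported, was 0 with the range covariate, in the lower range and with the offsets, and 0 to 1 with 1 library left out, the 1 being Flt4 rather than Ehd3 without WT replicate 2. The 3 calls among other endothelial genes were 0 in the lower range, 1 with the offsets and 1 to 4 with 1 library left out.

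With the replicate number as a block, 1338 genes were called, with 2 among the other sinusoidal genes and 0 among the 10 markers. Same-numbered libraries of the genotypes deviated together only weakly (r across genes −0.050 to 0.26, mean 0.087, against −0.022 for other pairs), so the numbers were not taken as pairs. Of the 10 libraries 5 correlated best with their own number. With 5 candidates for each library fewer matches would come by chance, and whether the numbers stand for litters was not tested. Litters are not given in the sources used here, and the main fit holds no term for them.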
